A study of Homo sapiens with 12 samples.

Results

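The 4 genes described here, OAS1, OAS2, OAS3 and OASL, make up the human 2′-5′-oligoadenylate synthetase (OAS) family. They were taken by symbol from the tables of every library, and they are 4 of the 27788 symbols counted. All 4 passed the filter on low counts in both cell lines.

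OAS1, OAS2 and OAS3 are enzymes that bind double-stranded RNA and then join ATP into short 2′-5′-linked oligoadenylates, known as 2-5A. 2-5A is a messenger of the antiviral response that leads to the decay of RNA of virus and host and stops protein synthesis in infected cells. OASL has lost the synthetase activity and carries a ubiquitin-like tail through which it acts on RIG-I signalling. All 4 genes are classic interferon-stimulated genes: type I and type III interferons act through the kinases JAK1 and TYK2 and a complex that holds STAT2 and IRF9 and binds the interferon-stimulated response element (ISRE) in promoters.

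The study removed GSTO1, a glutathione transferase of the omega class, from 2 human cancer cell lines and measured polyadenylated RNA by RNA-seq. HCT116 is a colorectal carcinoma line and U-87 MG a glioblastoma line. There were 4 groups of 3 libraries: HCT116 GSTO1 knockout (KO), HCT116 wild type (WT), U-87 MG KO and U-87 MG WT. Each line was compared with itself, KO against WT, which asks how the transcriptome of the GSTO1 KO cells differs from that of WT. Per the labels, the KO cells came from lines with stable Cas9 (lentivirus, blasticidin selection) that received tracrRNA and a crRNA against GSTO1 exon 2, after which single colonies were screened for loss of GSTO1. The labels also name a control crRNA without a target, but do not say whether the WT libraries carry Cas9 or that crRNA, nor how many colonies stand behind each KO group. Loss of GSTO1 therefore cannot be told apart from colony, Cas9 or handling in any difference between KO and WT. The same holds where that difference is compared between lines. No interferon or other treatment is named for any group. The labels do not call the replicates separate cultures. The p-values therefore rest on library-to-library spread alone, part or all of which may be technical.

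Between 17814142 and 28097179 reads per library were assigned to genes. HCT116 libraries were read from 1 end and U-87 MG libraries from both ends, so line and read layout cannot be told apart in any level set across lines. GSTO1 mRNA was lower in every KO library: in HCT116 it had 14.6 to 17.1 CPM (counts scaled to a common library size) in KO and 61.4 to 64.7 in WT, and in U-87 MG 23.8 to 25.2 in KO and 117 to 143 in WT. In 3 of the 4 groups replicate 3 stood apart from replicates 1 and 2, most of all in U-87 MG WT (chi-square per degree of freedom 8.21 and 9.31, against 2.39 between the other 2). Of the marker lists, 7 epithelial genes summed to 2610 to 2800 CPM in HCT116 KO and 2820 to 2950 in WT, and in U-87 MG to 10.2 to 11.6 in KO and 19.9 to 21.1 in WT. The 7 glial or mesenchymal genes summed to 54.5 to 60.5 CPM in HCT116 KO and 45.9 to 48.4 in WT, and in U-87 MG to 31000 to 31200 in KO and 31800 to 34300 in WT. The glial markers proper were near 0 in U-87 MG (GFAP 0.0561 CPM in WT, S100B and SOX2 at 0 in WT), so that sum rested on VIM, FN1, COL1A1 and CDH2. Of 8 leukocyte markers only CD68 had a mean FPKM above 0.5. The list summed to 10.8 to 11.9 CPM in HCT116 KO and 12.1 to 14.4 in WT, and in U-87 MG to 580 to 600 CPM in KO and 352 to 433 in WT, nearly all of it CD68, with CD3E at 0 in every library. Of these markers CDH1 was called between KO and WT in HCT116 (log2 fold change 0.86), and KRT8 (-1.12), COL1A1 (-0.84) and CD68 (0.63) in U-87 MG. Over all genes tested, 7.82% were called higher and 4.07% lower in HCT116, and 8.06% and 8.15% in U-87 MG. The part of these markers in the results was not tested.

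OAS1, OAS3 and OAS2 lie in this order on the plus strand of chromosome 12 within 105.9 kb (GRCh38, GENCODE 44). OAS1 spans chr12:112905856-112933219 with 6 exons in its canonical transcript, OAS3 chr12:112938051-112976460 with 16, and OAS2 chr12:112978395-113011723 with 10. OASL lies 8.01 Mb away on the minus strand at chr12:121017763-121039246 with 6 exons. No stretch of 50 bases, the read length, was shared between transcripts of the 4 genes, and 0.41% (OAS2) to 1.58% (OAS1) of their stretches also occurred in another gene, so a read of one relative does not match another. An antisense gene that was not counted, ENSG00000257452, covers 1.7% of the exon bases of OAS1.

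RefSeq windows around the transcription start (250 bases before it and 50 after, GRCh38.p14) were at hand for OAS1 and OAS3 of the 4 genes. They were searched on both strands for the ISRE core, which is GAAA, any 2 bases and GAAA again. A closer repeat, GAAANGAAA, was added after the windows had been seen. The 3 stretches of 30 bases below carry the matches in the members, with the motif in capitals and read in the direction of the gene. The base before the start is -1. The OAS3 window held the ISRE core at -143 to -134 and at -12 to -3, and the OAS1 window held the close repeat at -17 to -9.
OAS3 distal ISRE core, chr12:112938321-112938350, plus strand: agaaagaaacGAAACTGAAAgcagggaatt
OAS3 proximal ISRE core, chr12:112938452-112938481, plus strand: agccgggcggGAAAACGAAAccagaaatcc
OAS1 close repeat, chr12:112906935-112906964, plus strand: cccttctgagGAAACGAAAccaacagcagt

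For comparison, 3 interferon-linked genes of the lists below, picked among those with a match, are shown with their own ISRE core. Most genes of the lists had none: of those with a window, 3 of 11 in the pathway list and 6 of 24 in the regulator list held it. Over all 27305 symbols with a window the share was 4.38%. The 3 genes shown encode PKR (EIF2AK2) and MDA5 (IFIH1), both sensors of double-stranded RNA, and the ubiquitin-like protein ISG15. The IFIH1 and ISG15 windows hold further matches.
EIF2AK2, chr2:37156967-37156996, minus strand: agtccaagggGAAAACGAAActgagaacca
IFIH1, chr2:162318686-162318715, minus strand: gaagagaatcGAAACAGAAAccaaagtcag
ISG15, chr1:1013380-1013409, plus strand: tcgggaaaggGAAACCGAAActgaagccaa
Among 35116 windows of this length in the RefSeq table, 3.57% held the ISRE core and 3.12% the close repeat. The close repeat occurred in both member windows, in OAS3 at -148 to -140, where it overlaps the distal ISRE core. The OAS1 window held no match to the ISRE core, which says only that these letters are not in that window.

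In HCT116, all 4 OAS genes were higher in KO than in WT, and in each the 3 KO libraries lay above the 3 WT libraries. OAS1 rose most (28.7-fold), followed by OAS2 (8.9-fold), OASL (7.25-fold) and OAS3 (3.34-fold). On FPKM the sizes of the low genes and the order below OAS1 were different: with log2(FPKM + 1) and limma the log2 fold changes were 2.88 for OAS1, 2.17 for OASL, 1.63 for OAS3 and 0.58 for OAS2, and with log2(FPKM + 0.1) they were 4.39, 2.70, 1.68 and 2.04. OAS1, OAS3 and OASL met all conditions for a call: an adjusted p under 0.05 in edgeR's quasi-likelihood test, a fold above 1.5 and a mean FPKM (fragments scaled by transcript length and library size) above 0.5 over the 6 libraries. OAS2 passed the test and the fold but had a mean FPKM of 0.339. Of the 14068 genes tested in HCT116, 7.82% were called higher and 4.07% lower, 57.3% had an adjusted p under 0.05, and in 61.6% the KO and WT libraries did not overlap. A lack of overlap alone is thus common in these libraries. By log2 fold change the members ranked 7 (OAS1), 28 (OAS2), 35 (OASL) and 183 (OAS3) from the top.

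OAS1 was low in HCT116 WT. It had 24, 15 and 11 reads in the 3 WT libraries, or 0.988, 0.578 and 0.519 CPM. In KO it had 360, 403 and 464 reads, or 20.1, 21.2 and 19.4 CPM. The KO libraries were within a narrow band of each other and far above every WT library. The log2 fold change was 4.84 (SE 0.154, 95% interval 4.52 to 5.16, edgeR adjusted p = 2.30e-15).

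OAS3, the largest synthetase of the family, was the most abundant member in HCT116. It stood at 118, 123.0 and 125 CPM in WT and at 406, 413 and 405 CPM in KO. The groups were separated by a wide gap and the replicates of each differed little. The rise was 1.74 on the log2 scale (SE 0.040, 95% interval 1.66 to 1.82, edgeR adjusted p = 2.12e-17), the smallest of the 4 and the one with the smallest error.

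OASL, the member without synthetase activity, had 3.54, 3.39 and 2.88 CPM in WT and 23.4, 24.1 and 24.1 CPM in KO. The 2 groups did not overlap. Its log2 fold change was 2.86 (SE 0.101, 95% interval 2.65 to 3.07, edgeR adjusted p = 8.07e-15).

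OAS2, whose product works as a dimer, was close to the limit of detection in HCT116 WT, with 4, 9 and 5 reads or 0.165, 0.347 and 0.236 CPM. KO libraries held 40, 44 and 55 reads, or 2.23, 2.32 and 2.30 CPM. Every KO library was above every WT library, though both groups were low. On the log2 scale the rise was 3.15 (SE 0.309, 95% interval 2.51 to 3.80, edgeR adjusted p = 4.26e-08), with the widest interval of the 4 genes. Its mean level was 0.605 FPKM ± 0.0771 (SD, n = 3) in KO and 0.0732 ± 0.0350 in WT, so that only the KO group was above the FPKM threshold. Leaving out any 1 HCT116 library, replicate 3 of either group included, gave log2 fold changes of 4.69 to 5.18 for OAS1, 2.92 to 3.49 for OAS2, 1.71 to 1.75 for OAS3 and 2.78 to 2.92 for OASL.

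**Figure D1:**
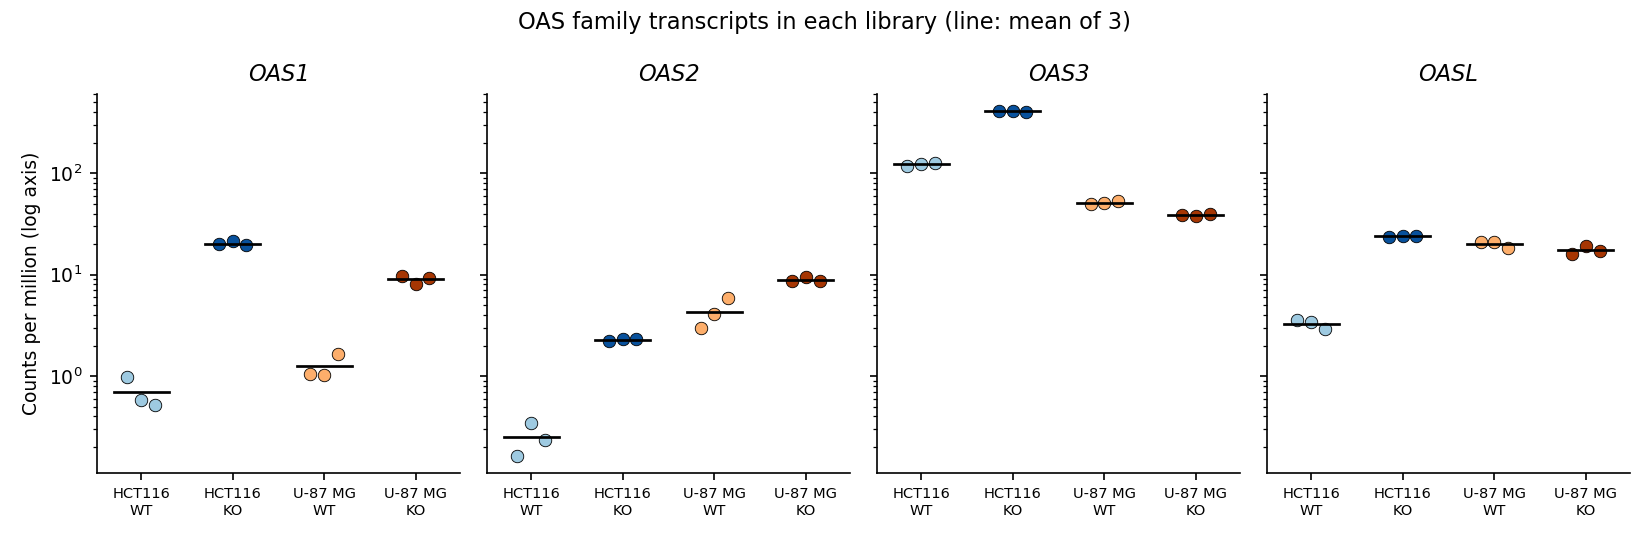
CPM of each OAS gene in every library on log10 axes, by line and genotype; points are libraries and lines are group means (n = 3). In HCT116 the KO points of all 4 genes lie above the WT points, and in U-87 MG this holds for OAS1 and OAS2 only, while OAS3 lies below and OASL overlaps.

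In U-87 MG, the members split. OAS1 rose 7.37-fold and OAS2 2.08-fold in KO, and both were called. OAS3 was lower in KO, 0.763 times the WT level, a difference that passed the test but not the fold condition, and OASL stood at 0.858 times the WT level with overlapping libraries. Of the 13741 genes tested in U-87 MG, 8.06% were called higher and 8.15% lower, 59.3% had an adjusted p under 0.05, and in 64.0% the groups did not overlap. By log2 fold change OAS1 ranked 111 and OAS2 734, while OASL ranked 9787 and OAS3 11363.

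OAS1 was again low in WT, at 1.06, 1.01 and 1.66 CPM (24, 28 and 35 reads). It stood at 9.78, 8.03 and 9.23 CPM in KO (271, 167 and 203 reads). All KO libraries were several times above all WT libraries. Its log2 fold change was 2.88 (SE 0.176, 95% interval 2.52 to 3.25, edgeR adjusted p = 4.07e-12), and it was 3.12 without WT replicate 3, the library that stood apart. It was 1.79 with limma on log2(FPKM + 1).

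OAS2 had 2.95, 4.10 and 5.87 CPM in WT and 8.63, 9.37 and 8.68 CPM in KO. The groups did not overlap, but the WT libraries were spread, with replicate 3 the highest. On the log2 scale the difference was 1.06 (SE 0.172, 95% interval 0.69 to 1.42, edgeR adjusted p = 6.07e-05), and 1.31 without WT replicate 3.

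OAS3 had 49.5, 50.2 and 52.8 CPM in WT and 39.0, 38.1 and 39.3 CPM in KO. Each KO library was below each WT library, and the spread within groups was small. The log2 fold change was -0.39 (SE 0.058, 95% interval -0.51 to -0.27, edgeR adjusted p = 4.75e-06). The gene was not called, because the fold is under 1.5 in either direction. Without WT replicate 3 the value was -0.37.

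OASL had 21.0, 21.1 and 18.4 CPM in WT and 15.9, 19.1 and 17.1 CPM in KO. KO replicate 2 was above WT replicate 3, so the groups overlapped. The log2 fold change was -0.22 (SE 0.087, 95% interval -0.40 to -0.04, edgeR adjusted p = 0.0332). That p was 0.0636 with DESeq2 and ran from 0.00237 to 0.184 when single libraries were left out (0.00237 and a log2 fold change of -0.29 without WT replicate 3), so the difference is at the edge of the test. A rise in OASL of the size seen in HCT116 lies far outside this interval.

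**Figure D2:**
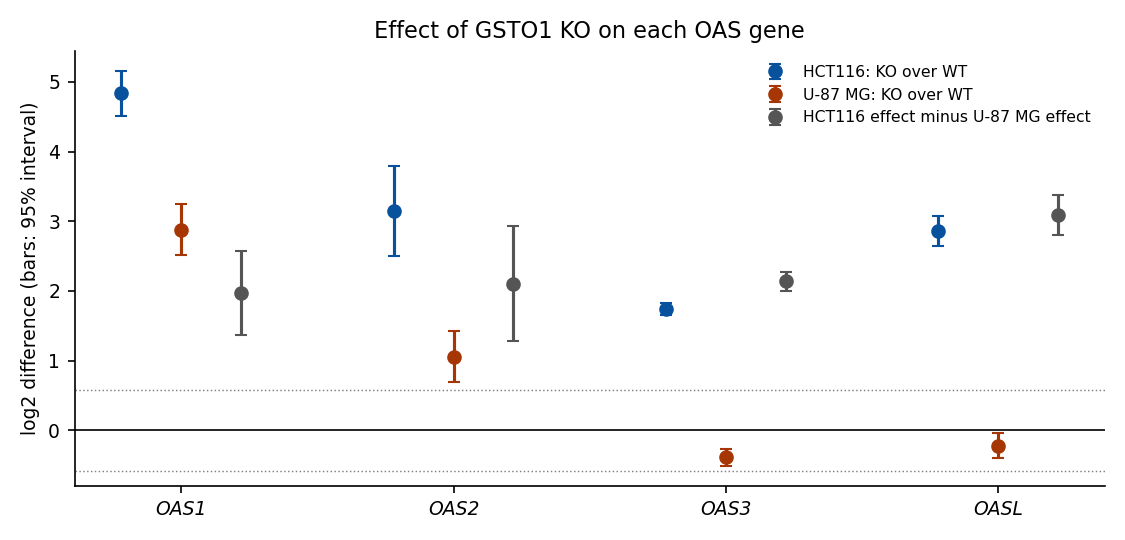
Log2 fold change of KO against WT for each OAS gene in HCT116 and U-87 MG, and the difference of both in grey, with 95% intervals from the edgeR fits; dotted lines mark a fold of 1.5 in either direction. All 4 values in HCT116 are above that line (1.74 to 4.84), and in U-87 MG OAS1 and OAS2 are above it (2.88 and 1.06) while OAS3 and OASL are between the lines (-0.39 and -0.22).

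The change itself was compared between lines in an edgeR fit of all 12 libraries. All 4 genes changed more strongly upward in HCT116 than in U-87 MG. Over all 15613 genes tested, 9.66% were called with a higher change in HCT116 and 7.24% with a lower one. The difference in log2 fold change was 3.09 for OASL (SE 0.140, edgeR adjusted p = 5.17e-18) and 2.14 for OAS3 (SE 0.065, edgeR adjusted p = 2.29e-22), the members that did not rise in U-87 MG. It was 2.11 for OAS2 (SE 0.402, edgeR adjusted p = 6.65e-05) and 1.97 for OAS1 (SE 0.295, edgeR adjusted p = 1.90e-06), which rose in both. For OAS2 this size depends on how its few reads in HCT116 WT are weighted: with log2(FPKM + 1) and limma the difference was -0.17 (adjusted p = 0.412), and with log2(FPKM + 0.1) it was 0.95.

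The WT libraries of both lines differed at every member. OAS2 was 18.7-fold higher in U-87 MG WT than in HCT116 WT (log2 4.23, SE 0.294, edgeR adjusted p = 1.10e-14) and OASL 6.93-fold (log2 2.79, SE 0.109, edgeR adjusted p = 1.93e-21). The size for OAS2 rests on 4 to 9 reads per HCT116 WT library. With limma on FPKM its log2 difference was 1.13 to 3.06, depending on the pseudocount. OAS3 was lower in U-87 MG, 0.47 times the HCT116 level (log2 -1.09, SE 0.046, edgeR adjusted p = 1.49e-20). OAS1 was 0.97 higher on the log2 scale (SE 0.274, edgeR adjusted p = 0.00163), from 11 to 35 reads per library, and 0.72 higher without U-87 MG WT replicate 3. These counts of 3 higher and 1 lower stand against 28.3% and 26.9% of all genes tested, so a difference at this contrast was common. Line and read layout cannot be told apart here.

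FPKM allows the members to be set against each other, since it is scaled by transcript length. In HCT116 WT the order was OAS3 at 15.3 FPKM ± 0.411 (SD, n = 3), OASL at 1.50 ± 0.0934, OAS1 at 0.339 ± 0.147 and OAS2 at 0.0732 ± 0.0350. In HCT116 KO the order was the same, with OAS3 at 49.3 ± 0.409, OASL at 10.3 ± 0.196, OAS1 at 8.80 ± 0.0435 and OAS2 at 0.605 ± 0.0771. No neighbours in either order overlapped.

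In U-87 MG WT the order was different: OASL at 9.04 FPKM ± 0.484 (SD, n = 3) led, followed by OAS3 at 6.54 ± 0.286, OAS2 at 1.39 ± 0.489 and OAS1 at 0.634 ± 0.132. In U-87 MG KO OASL stood at 7.98 ± 0.717, OAS3 at 5.00 ± 0.0948, OAS1 at 4.67 ± 0.522 and OAS2 at 2.94 ± 0.204. OAS1 thus ranked above OAS2 in KO, and its KO libraries (4.07 to 5.04) overlapped those of OAS3 (4.90 to 5.09), so these neighbours did not differ beyond their spread.

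The sum of the 4 FPKM values was nearly the same in both WT groups, 17.2 ± 0.222 (SD, n = 3) in HCT116 and 17.6 ± 0.453 in U-87 MG. In KO it was 69.0 ± 0.538 in HCT116 and 20.6 ± 0.310 in U-87 MG. OAS3 made up 88.9% ± 1.25 of the sum in HCT116 WT and 71.5% ± 0.173 in HCT116 KO, so it stayed the main transcript. The share of OAS1 went from 1.98% ± 0.886 to 12.7% ± 0.0577 there, and from 3.59% ± 0.673 to 22.7% ± 2.84 in U-87 MG. In U-87 MG the share of OASL was 51.4% ± 3.86 in WT and 38.7% ± 2.87 in KO. OASL, the member without synthetase activity, was the most abundant of the 4 in each U-87 MG library.

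**Figure D3:**
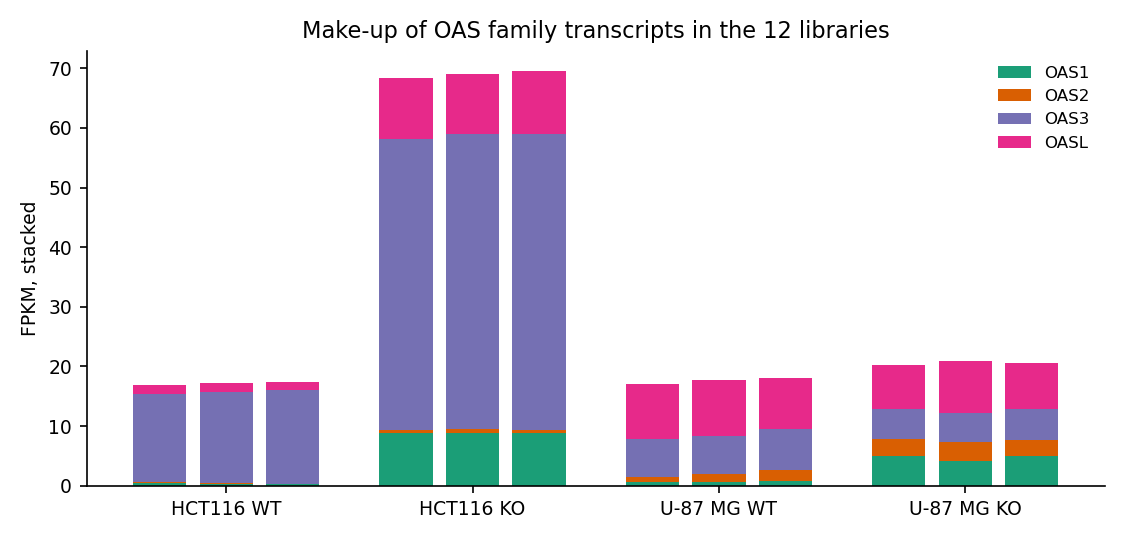
Deposited FPKM of the 4 OAS genes in every library, stacked on a linear axis that starts at 0. The HCT116 KO bars reach 68.4 to 69.5 FPKM with OAS3 as the largest segment, while WT bars of both lines stand at 17.0 to 18.0, and the U-87 MG KO bars at 20.3 to 20.9 with a larger OAS1 segment.

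Of the genes that act against 2-5A signalling, ABCE1, which also recycles ribosomes, was lower in KO in both lines: by 0.52 on the log2 scale in HCT116 (edgeR adjusted p = 1.75e-07, not called) and by 0.64 in U-87 MG (edgeR adjusted p = 1.56e-11, called). PDE12, a phosphodiesterase that degrades 2-5A, had a log2 fold change of -0.38 in HCT116 (edgeR adjusted p = 6.37e-06, not called) and of 0.09 in U-87 MG (edgeR adjusted p = 0.166).

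The pathway list holds 15 genes and is wider than the 2-5A pathway itself. Some encode proteins that degrade 2-5A or act against its signalling, and others sense or handle foreign nucleic acid. In HCT116, 5 of the 13 tested were called higher and 0 lower, against the 7.82% and 4.07% of all genes, and their median log2 fold change was 0.38 beside 0.007 over all genes. All 5 are double-stranded RNA sensors. IFIH1 (MDA5) was at 2.55, DHX58 (LGP2) at 2.49, DDX58 (RIG-I) at 2.43, TLR3, the endosomal sensor, at 1.77 and EIF2AK2 (PKR) at 0.78. DHX58 met the FPKM condition only through KO, with a mean of 1.045 FPKM there and 0.189 in WT. It had 11 to 24 reads per HCT116 WT library, so its fold is less certain. ADAR, which edits double-stranded RNA, had a log2 fold change of 0.55 and passed the edgeR test (adjusted p = 5.56e-11) at a fold of 1.47, just under the condition. At an unadjusted p under 0.05 in edgeR, whatever the fold, 2 genes were lower, ABCE1 and PDE12. DESeq2 also called 0 lower.

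In U-87 MG, 4 of the 13 were called higher, DHX58 at 1.36, TLR3 at 0.62, IFIH1 at 0.60 and MAVS, the adaptor of RIG-I and MDA5, at 0.59, and 1 lower (ABCE1), against 8.06% and 8.15% of all genes. The median was 0.09 beside 0.006. IFIH1, TLR3 and MAVS lay close to the fold of 1.5 and lost their calls in 4, 4 and 6 of 13 alternatives, and the count of 4 fell to 2 without KO replicate 3 or without WT replicate 1. DDX58 was 0.29 lower on the log2 scale (edgeR adjusted p = 0.00128, not called) and EIF2AK2 had a log2 fold change of -0.11 (edgeR adjusted p = 0.238). The difference between lines was called for EIF2AK2, DDX58, IFIH1, DHX58 and TLR3, all higher in HCT116, as for the 4 OAS genes. These were 5 of the 13 tested, with 0 lower, against 9.66% higher and 7.24% lower over all genes. With limma on log2(FPKM + 1) the call of TLR3 was lost and the difference for DHX58 turned to -0.22, and DHX58 also lost its call with log2(FPKM + 0.1).

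**Figure D4:**
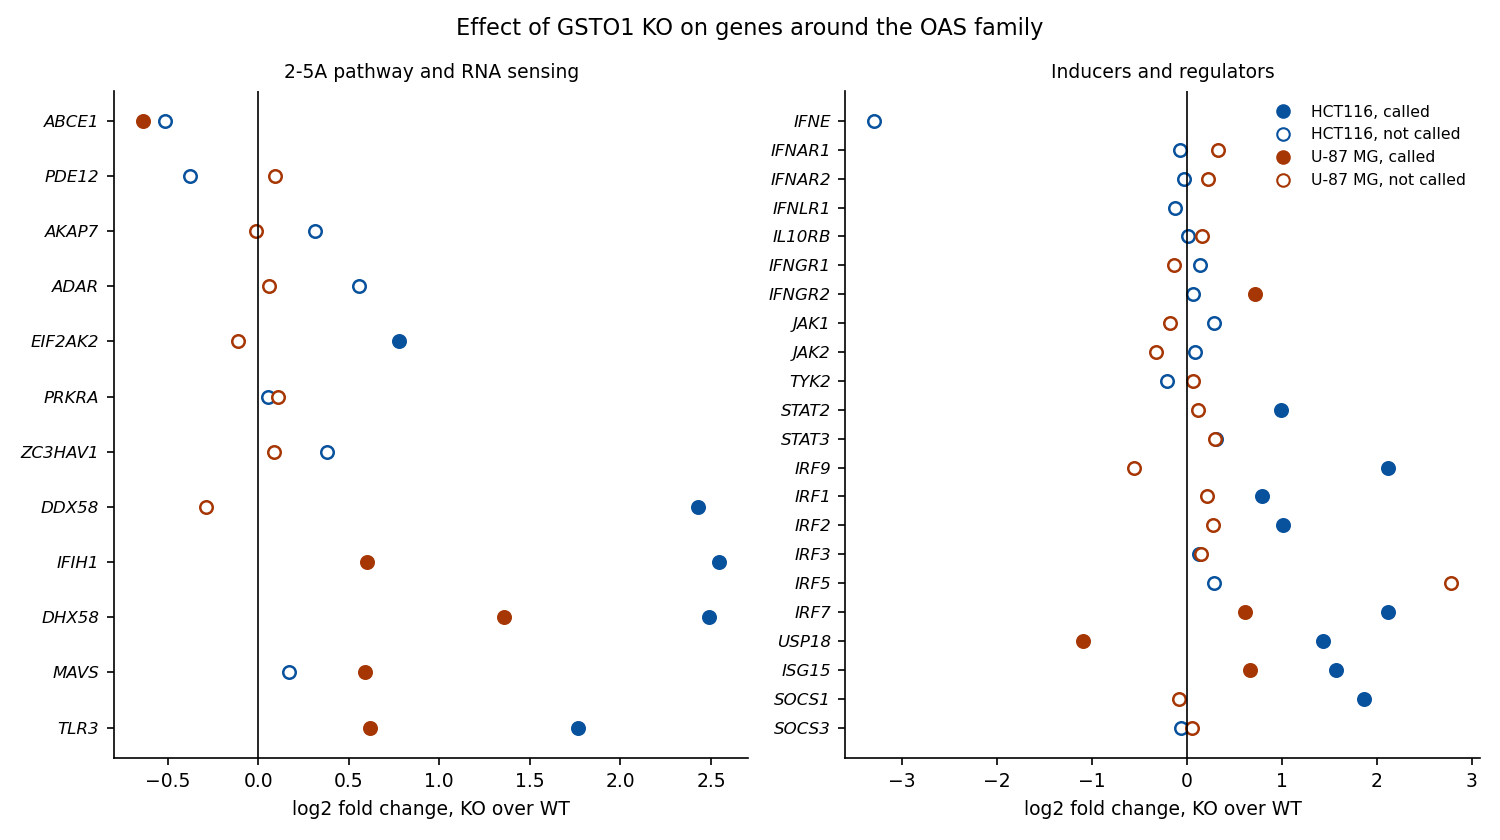
Log2 fold change of KO against WT for the list on the 2-5A pathway and RNA sensing and for inducers and regulators of OAS transcription. HCT116 is in blue and U-87 MG in orange, and filled points were called and open points were not. In HCT116 the RNA sensors IFIH1, DHX58 and DDX58 (2.43 to 2.55) and the factor IRF9 (2.12) are far from 0, while in U-87 MG DDX58 (-0.29) and IRF9 (-0.56) are below 0.

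The inducers and regulators of OAS transcription form a list of 30 genes: interferons, their receptors and kinases, factors and feedback inhibitors. In HCT116, 9 of the 23 tested were called higher and 0 lower by edgeR and by DESeq2, against 7.82% and 4.07% of all genes in edgeR, with a median log2 fold change of 0.28 beside 0.007 over all genes. At an unadjusted p under 0.05 in edgeR, 2 were lower, IFNE and TYK2. The genes called higher included IRF9 at 2.12 and STAT2 at 1.00, both parts of the complex that binds the ISRE. IRF7, which drives interferon genes, was at 2.11, SOCS1, a feedback inhibitor of JAK kinases, at 1.87, ISG15 at 1.57, USP18, which removes ISG15 and dampens receptor signalling, at 1.43, IRF2 at 1.01 and IRF1 at 0.80.

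In U-87 MG, 3 of the 21 tested were called higher, IFNGR2, a chain of the interferon gamma receptor, at 0.72, ISG15 at 0.67 and IRF7 at 0.61. USP18 was called lower at -1.09 (edgeR adjusted p = 1.86e-08). Over all genes 8.06% were called higher and 8.15% lower, so these counts were near the background, and the median was 0.15 beside 0.006 over all genes. IRF9, the DNA-binding part of the complex, was at 24.4, 22.1 and 26.4 CPM in WT and at 16.3, 16.1 and 16.9 CPM in KO, so it was lower in each KO library (log2 fold change -0.56, edgeR adjusted p = 3.71e-06, not called). STAT2 had a log2 fold change of 0.12. Without WT replicate 3 the calls of IRF7 and ISG15 were lost, which left IFNGR2 as the 1 gene called higher. OAS1 and OAS2 were higher in U-87 MG KO, while OAS3 and OASL were not. Beside them IRF9 and USP18 were lower and IFNGR2, ISG15 and IRF7 higher, and the part of these regulators was not tested.

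The ligands on the list were at or near 0. IFNB1, IFNA1, IFNK and IFNG had 0 reads in all 12 libraries, which allows up to 0.0413 to 0.0496 CPM per group at 3 counts over the group, for counting error only. How reads with several matches were counted is not given, so neither this limit nor the counts that follow cover such reads. In HCT116, IFNL1, a type III interferon, had 6, 11 and 13 reads in KO and 1, 2 and 0 in WT, IFNL2 had 10 reads over the KO group and 1 over WT, and IFNL3 had 11 and 0. IFNE, a type I interferon of epithelia, went the other way, with 1 read in each HCT116 KO library and 12, 13 and 13 in WT. These 4 ligands were at 0 in every U-87 MG library. None was high enough for a call, and their part in the OAS levels was not tested.

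Of the 4 nearest counted protein-coding genes on each side of the cluster and of OASL, 16 in all on chromosome 12, 13 were tested in HCT116 and 1 was called higher (P2RX7, an ATP-gated channel, log2 fold change 0.65), against 7.82% of all genes. Their median log2 fold change was 0.26. The highest was RPH3A at 1.46, 7.0 kb before OAS1 (edgeR adjusted p = 0.00227, not called because of its low level). In U-87 MG, 12 were tested and 2 called higher, ACADS and P2RX4, both at 0.73, against 8.06% of all genes, and the median was 0.05.

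**Figure D5:**
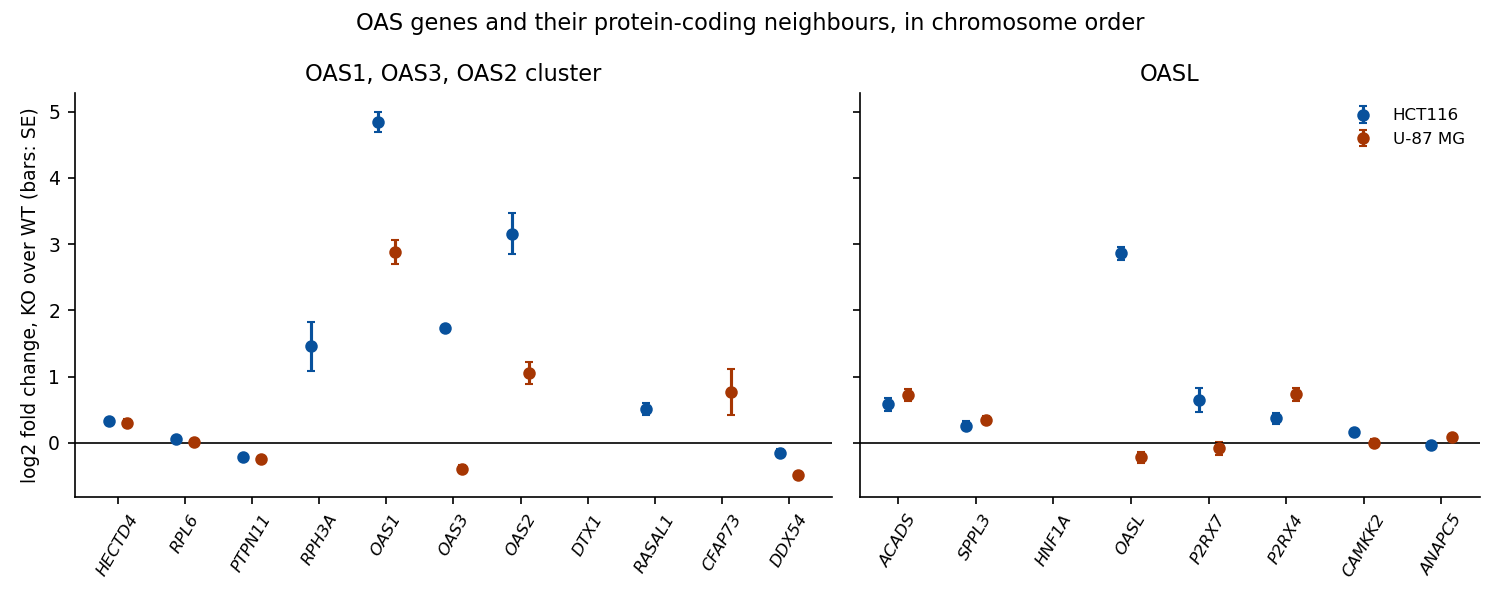
Log2 fold change of KO against WT (bars are SE) for the OAS genes and neighbouring counted protein-coding genes, in order along chromosome 12, for both lines; 1 neighbour is not drawn. The OAS genes of HCT116 (1.74 to 4.84) lie above all neighbours drawn, whose HCT116 values run from -0.22 to 1.46.

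Each member was also matched with the genes whose log2 CPM followed it most closely over the 12 libraries, among 15612 genes. This is a description: the libraries share 4 group levels, and r does not see the size of a change. OAS1 was followed most closely by NEO1 (r = 0.983), SLC2A12 (0.977), IFIT2 (0.976), PARP14 (0.975) and CMBL (0.968), of which IFIT2 and PARP14 are interferon-stimulated genes. For OAS2 they were ABTB2 and PML (both 0.991), WWTR1 (0.989), BBS1 (0.988) and OPTN (0.987). For OAS3 they were IFITM1 (0.996), ZC3H11A (0.994), NEDD4L (0.993), TIAM1 (0.992) and DRD1 (0.991), and for OASL PKIB (0.994), RFX5 (0.990), TMEM63A (0.987), BTN3A2 (0.986) and MARF1 (0.982). These are the highest r among 15612 genes, so pairs of members, taken by family and not by r, were bound to lie at or below them. Between members r was 0.861 for OAS2 and OASL, 0.686 for OAS1 and OASL and 0.563 for OAS1 and OAS2. It was 0.370 for OAS1 and OAS3, -0.03 for OAS3 and OASL and -0.45 for OAS2 and OAS3. The negative value goes with the opposite order of their WT levels, OAS2 being higher and OAS3 lower in U-87 MG.

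The motif shown for OAS3 was more common among the genes called higher in HCT116. Of 401 tested genes with the ISRE core in their window, 18.0% were called higher in HCT116, against 7.16% of 10025 without it. In U-87 MG the shares were 9.77% of 430 and 7.61% of 9855. These shares are a description and were not tested. OAS3, with 2 such matches, rose in HCT116 and was lower in U-87 MG. OAS1, whose window holds the close repeat but no match to the ISRE core, rose in both. The part of these motifs in the change of either gene was not tested.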

How the data were processed

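Per the labels' protocols, stranded libraries were made from RNA with a RIN of at least 8 with 12 cycles of PCR and read at 50 bases. Per the submitters' processing notes, the authors aligned reads to GRCh38 with STAR 2.5.2, made the deposited read counts with featureCounts 1.6.1 and the deposited FPKM with Cufflinks 2.2.1. The labels and notes give no settings for strand, read pairs or reads with several matches. Counts cover 27788 symbols, FPKM 24552, and 24493 symbols have both.

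Counts were tested with edgeR 4.0.16 (R 4.3.3; TMM, filterByExpr, robust quasi-likelihood fit, Benjamini-Hochberg over all genes), in each line on its 6 libraries and across lines on all 12. CPM are TMM-scaled within a line, and SE and 95% intervals come from the same fits. A gene was called when its adjusted p was under 0.05, its fold over 1.5 in either direction and its FPKM, as a mean of the line's 6 libraries (in at least 1 line for contrasts across lines), over 0.5. The tests were also run on counts simulated as independent draws, with changes set only in well-counted genes. That run covers neither genes as low as OAS2 in HCT116 nor the offset of replicate 3.

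The members and lists were chosen with earlier results of these data known. By rule the text names the members, ABCE1, PDE12, ADAR, EIF2AK2, the ligands, STAT2, IRF9, other listed genes called in a line, the 5 genes most like each member by Pearson r of log2 CPM (prior count 2), the neighbours and GSTO1. TYK2, IFNLR1, IRF5 and, among neighbours, RPH3A were picked out after their values were seen. Some genes that the rule names and 1 motif match are not reported here.

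Deviations from the group means of same-numbered libraries correlated at r = 0.152, 0.143 and 0.399 in HCT116, each above 0.1, the bar set for taking numbers as pairs, and at 0.044, 0.013 and 0.003 in U-87 MG, where they do not pair. In HCT116 replicates 1 and 2 cannot be told apart by number (KO 1 with WT 2 at 0.173, KO 2 with WT 1 at 0.127), and only replicate 3 stands out. The replicate block changed no call of a member. Alternatives were DESeq2 1.42.0, its size factors in edgeR, no filter, limma 3.58.1 on log2(FPKM + 1) and log2(FPKM + 0.1), the block, 1 fit of all libraries, and leaving out each library.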

Additional observations from a re-analysis of the deposited data

Results flagged for a closer look

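All values here are differences between lines, the log2 fold change of KO against WT in HCT116 minus that in U-87 MG, and each was picked out because that difference passed the edgeR test of the interaction and the conditions for a call. Over all 15613 genes tested, 9.66% were called with a higher change in HCT116 and 7.24% with a lower one. For the OAS family the differences were 1.97 (OAS1), 2.11 (OAS2), 2.14 (OAS3) and 3.09 (OASL). OASL and OAS3 were higher in every HCT116 KO library than in any HCT116 WT library. OAS3 was lower in every U-87 MG KO library than in any U-87 MG WT library. Such a lack of overlap was common, at 61.6% of all genes tested in HCT116 and 64.0% in U-87 MG.

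Among sensors of foreign RNA the differences were 0.90 (EIF2AK2), 2.73 (DDX58), 1.95 (IFIH1), 1.14 (DHX58) and 1.16 (TLR3). Among factors they were 0.89 (STAT2), 2.69 (IRF9), 0.60 (IRF1), 0.74 (IRF2) and 1.51 (IRF7), and among feedback inhibitors and modifiers 2.53 (USP18), 0.91 (ISG15) and 1.96 (SOCS1). IRF1 was close to the fold of 1.5 and lost its call in 8 of 18 alternatives (without the filter, on both FPKM scales, and in 5 fits that left out 1 library: HCT116 KO replicate 2, HCT116 WT replicate 3, U-87 MG KO replicate 1 or 3, or U-87 MG WT replicate 1). IRF2 and TLR3 lost theirs with log2(FPKM + 1), and DHX58 on both FPKM scales. USP18 was called in opposite directions, at 1.43 in HCT116 and -1.09 in U-87 MG.

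For 3 genes the change was lower in HCT116: -2.76 for IFNLR1, a chain of the receptor for type III interferon, -0.65 for IFNGR2 and -2.48 for the factor IRF5. IFNLR1 was too low for a test within U-87 MG, and IRF5 had a mean of only 0.398 FPKM there. Both lost the call with log2(FPKM + 1). Of the 23 inducers and regulators tested, 9 were called with a higher change in HCT116 and 3 with a lower one. Over all genes the shares were 9.66% and 7.24%.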

How the results depend on the processing

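Of 305 recomputed values for members and for counts of calls over all genes, 302 kept their direction and side of the threshold (counts within 1.5 times). The other 3 came from limma on log2(FPKM + 1). There 1047 genes passed in HCT116 (555 higher, 492 lower) in place of 1672 (1100 higher, 572 lower), the difference between lines for OAS2 reversed to -0.17, and OAS1 in U-87 MG WT against HCT116 WT fell to 0.29 and lost its call. The difference for DHX58 reversed there too, to -0.22. That pseudocount shrinks changes of genes with levels under 1 FPKM, as OAS1 in both WT groups and OAS2 in HCT116 WT.

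With the replicate block the log2 fold changes were 4.85, 3.16, 1.74 and 2.86 in HCT116 for OAS1, OAS2, OAS3 and OASL, and 2.87, 1.08, -0.39 and -0.22 in U-87 MG. The block gave 1680 calls in HCT116 and 2221 in U-87 MG (2227 without it), and 2641 for the difference between lines (2639 without it). Leaving out single libraries moved OAS1 between 4.69 and 5.18 and OAS2 between 2.92 and 3.49 in HCT116, and OAS2 between 0.85 and 1.31 in U-87 MG. Of the lists in U-87 MG, 4 pathway genes called higher became 1 with log2(FPKM + 1) and 2 with log2(FPKM + 0.1). Depth limits OAS2 in HCT116 WT (4 to 9 reads) and the interferon genes.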

Other observations

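Several genes that followed a member across libraries also changed by different amounts. PKIB, the gene most like OASL in pattern and an inhibitor of protein kinase A, had log2 fold changes of 3.47 in HCT116 and -0.21 in U-87 MG, beside 2.86 and -0.22 for OASL. IFIT2, an interferon-stimulated RNA-binding protein, had 2.66 and 1.25, beside 4.84 and 2.88 for OAS1. NEO1, the gene with the highest r to OAS1 and a receptor of netrins, had only 0.52 and 0.45. TIAM1, an exchange factor for Rac, had 1.34 and -0.65, beside 1.74 and -0.39 for OAS3.

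Among genes with the close repeat GAAANGAAA in their RefSeq window, the motif of the OAS1 window, 15.3% of 346 were called higher in HCT116 and 12.3% of 373 in U-87 MG, against 7.31% and 7.53% of genes without it. These shares were not tested, and the motif was added after the windows had been seen.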
